A study of Danio rerio with 6 samples.

Results

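The 4 long intergenic non-coding RNAs (lincRNAs) described here form 2 pairs on zebrafish chromosome 21. In each pair, a transcript of the minus strand spans a shorter transcript of the plus strand, so that small RNA reads on the shared bases count for both. The members were taken by their transcript identifiers, 4 of the 1315 lincRNAs in the deposited count table, and were chosen because their counts differed between the groups of embryos compared here. si:dkeyp-116h7.2 (ENSDART00000135637.2, gene ENSDARG00000092632) lies on the minus strand from 17947814 to 17976724 of genome build GRCz10, and si:dkeyp-116h7.4 (ENSDART00000154612.2, gene ENSDARG00000097313) on the plus strand from 17948235 to 17957900. si:dkey-163i6.7 (ENSDART00000142034.2) lies on the minus strand from 22330675 to 22338370, and si:ch73-112l6.6 (ENSDART00000153803.3, gene ENSDARG00000097526) on the plus strand from 22333232 to 22335576. The pairs are 4.35 Mb apart. Because both partners of a pair had nearly the same counts, the pair is treated as 1 profile, the mean of its partners.

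The study asked whether non-coding RNA expression in embryos is altered after their parents were irradiated. Small RNA was sequenced from whole embryos of wild type strain AB at 5.5 h post-fertilization (50% epiboly), in pools of 100 embryos. The F1-γ group (n = 3 pools) came from parents exposed as adults, during gametogenesis, to a cobalt source at 8.7 mGy/h for a total of 5.2 Gy and mated 1 year later, and the F1-C group (n = 3 pools) from control parents kept without exposure. Each library is a pool, so differences between single embryos were not measured, and in a whole-embryo pool fewer cells making an RNA and less RNA per cell cannot be told apart.

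LincRNAs are transcribed from regions between protein-coding genes and are not translated into known proteins, and some of them act in the nucleus on chromatin or splicing. When transcripts of opposite strands overlap, their shared exons are complementary and can pair. Small RNA libraries keep short RNAs only, so a count on a lincRNA is a number of short reads and is not a measure of the full-length transcript. The table lists 1 span for each lincRNA, from its start to its end. Whether reads on introns were counted is not given, and the lengths and counts per kb below take the whole span as counted. Database annotations and orthologs of the 4 members were not used here, and no function is given below.

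The lincRNA counts summed to 124348 to 131439 per F1-γ library and 96906 to 129490 per F1-C library. The lincRNA with the most counts summed over the 6 libraries, si:dkey-153m14.1 (ENSDART00000151198.3), took 0.660% to 1.58% of these counts in F1-γ and 15.1% to 19.8% in F1-C, which moves every share of the total. The stage was checked on miRNAs. The miR-430 family, made by early zebrafish embryos, took 83.9% to 88.4% of miRNA counts in F1-γ and 85.8% to 87.6% in F1-C, while miR-122 of liver, miR-1 and miR-206 of muscle and miR-124 and miR-9 of brain each took 0.0638% or less in any F1-γ library and 0.0558% or less in any F1-C library. Some of these low shares differed between the groups without overlap, with miR-1 at 0.00468% to 0.0123% in F1-γ and 0.00227% to 0.00291% in F1-C, and miR-9 at 0.0562% to 0.0638% in F1-γ and 0.0431% to 0.05003% in F1-C. Those of miR-122, miR-206 and miR-124 overlapped, and how often miRNAs as a whole separate the groups was not tested. The part of these markers in the results below was not tested either. The miR-430 entries share reads, so that share is uncertain.

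The transcripts of a pair are complementary in their exons as well as in their spans. In the transcript sequences given with the study's sequence alignments, bases 1 to 297 of si:dkeyp-116h7.4 are the exact reverse complement of bases 331 to 627 of si:dkeyp-116h7.2. The stretch is shown from its plus-strand transcript, in capitals, followed by the first bases outside it in lower case. The line after it gives the matching end in the minus-strand transcript, bases 588 to 647, whose 40 capitals are the reverse complement of the first 40 capitals above and whose lower case lies outside the plus-strand span.
si:dkeyp-116h7.4, bases 1 to 300: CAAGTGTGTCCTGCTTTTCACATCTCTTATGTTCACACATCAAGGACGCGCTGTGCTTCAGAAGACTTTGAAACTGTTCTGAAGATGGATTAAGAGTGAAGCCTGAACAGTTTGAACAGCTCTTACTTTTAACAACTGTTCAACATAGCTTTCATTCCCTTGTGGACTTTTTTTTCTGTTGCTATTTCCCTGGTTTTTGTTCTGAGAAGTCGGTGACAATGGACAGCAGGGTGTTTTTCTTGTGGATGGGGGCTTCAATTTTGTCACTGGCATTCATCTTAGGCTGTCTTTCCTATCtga
si:dkeyp-116h7.2, bases 588 to 647: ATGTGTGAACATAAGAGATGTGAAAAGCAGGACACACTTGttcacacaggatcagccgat

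Counted from the start of the plus-strand span, this stretch covers bases 17948235 to 17948531 of chromosome 21 in GRCz10, if no intron lies within it. The 421 bases of si:dkeyp-116h7.2 that follow the stretch match in number the 421 bases by which its span extends beyond the plus-strand start. By these lengths, the stretch lies at the start of si:dkeyp-116h7.4 and near the end of si:dkeyp-116h7.2, 421 bases before its last base.

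The transcripts of the other pair share a shorter complementary stretch. Bases 204 to 316 of si:dkey-163i6.7 are the exact reverse complement of bases 175 to 287 of si:ch73-112l6.6, the longest complementary run of 113 bases. The only other run of 14 or more bases was 14 bases long and joined bases 293 to 306 of si:dkey-163i6.7, which lie within the longer run, to bases 344 to 357 of si:ch73-112l6.6. The alignment of si:ch73-112l6.6 begins at base 175, so the run could be longer than what is shown. Both transcripts are printed, each with the shared bases in capitals and 20 bases outside them in lower case on the sides that the alignments hold.
si:dkey-163i6.7, bases 184 to 336: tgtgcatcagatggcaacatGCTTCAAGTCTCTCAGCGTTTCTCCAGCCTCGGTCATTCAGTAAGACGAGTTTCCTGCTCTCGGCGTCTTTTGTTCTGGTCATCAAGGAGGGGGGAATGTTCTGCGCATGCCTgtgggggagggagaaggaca
si:ch73-112l6.6, bases 175 to 307: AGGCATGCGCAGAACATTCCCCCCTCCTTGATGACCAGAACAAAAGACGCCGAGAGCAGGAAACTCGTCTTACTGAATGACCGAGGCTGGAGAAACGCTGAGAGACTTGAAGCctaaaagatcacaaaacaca

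No run of 14 or more identical bases, in either sense, joined a transcript of one pair to a transcript of the other. The longest complementary stretches make up 3.07% of the shared span of si:dkeyp-116h7.2 and si:dkeyp-116h7.4 and 4.82% of that of si:dkey-163i6.7 and si:ch73-112l6.6. The counts do not say whether the reads fell on these exons or on introns of the shared span.

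Nearly all counts of the longer transcripts came from the bases they share with their partners. si:dkeyp-116h7.2 had 954, 856 and 1082 counts in the F1-γ libraries and 1031, 1211 and 854 in the F1-C libraries. si:dkeyp-116h7.4 had 954, 855 and 1082 counts in F1-γ and 1030, 1211 and 854 in F1-C. The partners thus differed by 1 count in 1 F1-γ and 1 F1-C library and were equal in the other 4 libraries. Summed over all libraries, 2 of 5988 counts (0.0334%, exact 95% binomial interval 0.00405% to 0.121%) fell on the 19.2 kb outside the shared bases, which make up 66.6% of the longer span. The shared 9.67 kb held 619 counts per kb and the remainder 0.104 counts per kb.

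si:dkey-163i6.7 had 118, 106 and 95 counts in the F1-γ libraries and 148, 206 and 176 in the F1-C libraries. si:ch73-112l6.6 had 116, 106 and 94 counts in F1-γ and 147, 206 and 176 in F1-C. Here 4 of 849 counts (0.471%, exact 95% binomial interval 0.129% to 1.20%) lay on the 5.35 kb outside the shared bases, which are 69.5% of the longer span. The shared 2.35 kb held 360 counts per kb and the remainder 0.748 counts per kb. Intervals cover counting error only, since reads without molecular identifiers are not independent molecules.

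**Figure D1:**
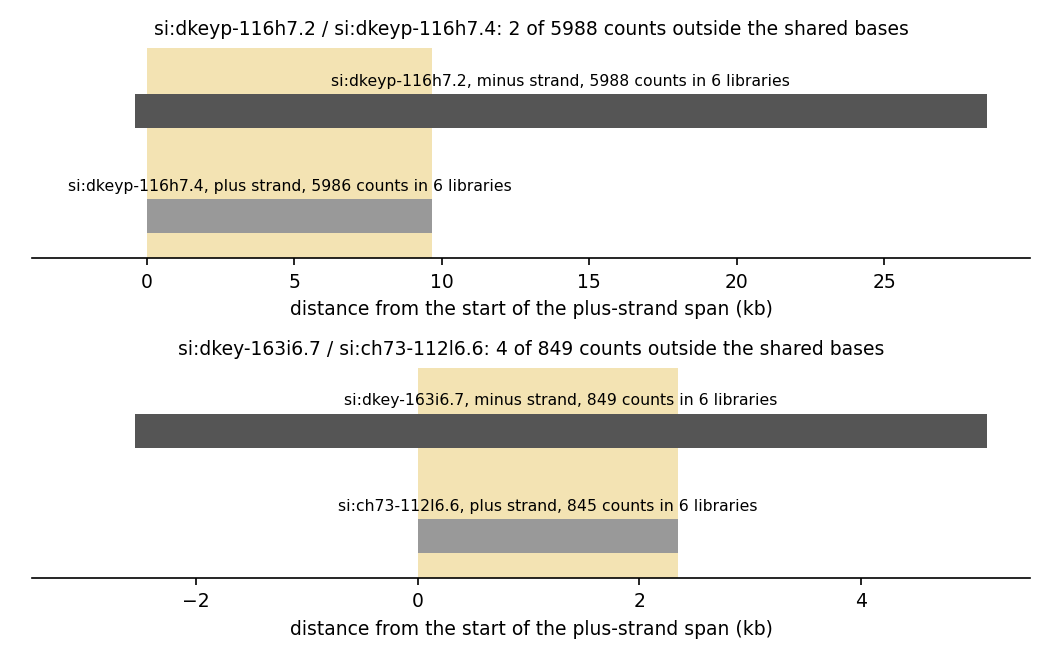
Spans of the 4 lincRNAs, minus strand above plus strand in each panel, against the distance in kb from the start of the plus-strand span, with the bases shared by a pair shaded. In both pairs the shorter span held nearly all counts of the longer one, with 2 of 5988 and 4 of 849 counts outside it.

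The share of counts outside the shared bases was compared between the groups. It was computed from the same counts by which the members were chosen, so it is not independent of that choice. For si:dkeyp-116h7.2 it was 0.0389% ± 0.0674 (SD, n = 3) in F1-γ and 0.0323% ± 0.0560 (SD, n = 3) in F1-C (two-sided exact permutation test, p = 1). For si:dkey-163i6.7 it was 0.916% ± 0.856 (SD, n = 3) in F1-γ, from 2, 0 and 1 counts, and 0.225% ± 0.390 (SD, n = 3) in F1-C, from 1, 0 and 0 counts (p = 0.4 in the same exact test). With 3 libraries against 3 the exact permutation test cannot go below p = 0.1, and with so few counts a difference was not detectable at this depth.

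The table as a whole showed that the counts were not separated by strand. It holds 32 overlapping pairs of lincRNAs, all of them on opposite strands, with none on the same strand. In 20 of these the shorter span lies wholly within the longer one, and in all 20 the shorter transcript never had more counts than the longer one in any library. ENSDART00000194925.1 and ENSDART00000194148.1 of chromosome 11, which have the same span on opposite strands, had the same count in every library. The values of the 4 members therefore belong to the shared bases, and which strand the reads came from cannot be told apart.

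How far the counts gather on the shared bases differed among nested pairs. In the 18 pairs other than those described, the shorter transcript held between 0% and 100% of the counts of the longer one, with a median of 10.1%. It held 100% and 99.5% of them for si:dkeyp-116h7.2 and si:dkey-163i6.7 when rounded to 3 digits. The shorter transcript held 95% or more in 5 of the 20 nested pairs, the members' pairs included. The median includes pairs with few counts, down to 3 for the longer transcript. Among the 10 nested pairs with more than 100 counts on the longer transcript, the shorter held 95% or more in 4, the members' pairs included. Both tallies include the chromosome 11 pair with the same span, whose 100% is fixed by construction. The tally over all nested pairs also includes ENSDART00000194039.1 / ENSDART00000194022.1, with 96.6% of only 87 counts on 69.5% of the bases. In ENSDART00000172746.2 / ENSDART00000195002.1 it held 96.5% of the counts on 13.9% of the bases. Within ENSDART00000145561.3 it held 0% on 5.20%. Such gathering is thus not particular to the members.

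**Figure D2:**
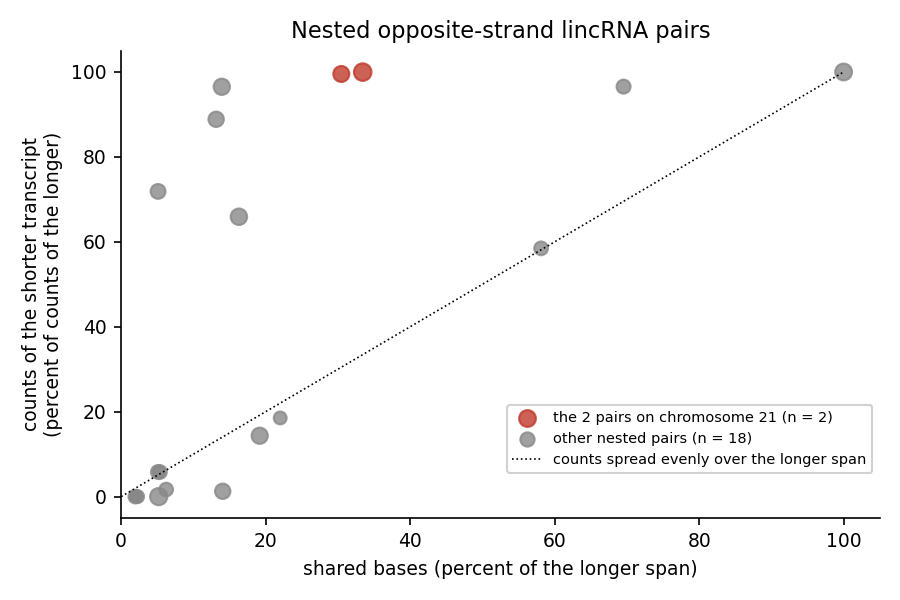
Counts of the shorter transcript as a percent of those of the longer one, summed over 6 libraries, against the shared bases as a percent of the longer span, for 20 nested opposite-strand pairs, with larger points for more counts. The red points are the pairs of chromosome 21, which lie near 100% of the counts at 33.4% and 30.5% of the bases, far above the dotted line for counts spread evenly over the span.

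The si:dkeyp-116h7.2 / si:dkeyp-116h7.4 pair was lower in F1-γ than in F1-C after scaling, but not in raw counts. In raw counts the groups overlapped, with a pair mean of 964 ± 114 (SD, n = 3) in F1-γ and 1032 ± 179 (SD, n = 3) in F1-C. CPM are counts divided by the library size and multiplied by a constant, with sizes adjusted by TMM, a trimmed mean of the log ratios between libraries. On this scale the pair had 6897, 6540 and 8151 CPM in F1-γ and 11219, 11839 and 10762 CPM in F1-C. Every F1-γ library was thus below every F1-C library, which was so for 23.2% of the 125 lincRNAs tested, while every F1-γ library was above every F1-C library for 24.8%. The pair mean was 7196 ± 846 CPM (SD, n = 3) in F1-γ and 11273 ± 541 CPM (SD, n = 3) in F1-C. The log2 fold change (log2 FC, F1-γ over F1-C) was -0.65 (standard error 0.114) for each partner.

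The si:dkey-163i6.7 / si:ch73-112l6.6 pair was less abundant and stood further apart between the groups. Its raw counts did not overlap, with a pair mean of 106 ± 11.3 (SD, n = 3) in F1-γ and 176.5 ± 29.3 (SD, n = 3) in F1-C. Every F1-γ library was below every F1-C library in raw counts for 4.8% of the lincRNAs tested, 6 of 125, with both partners of this pair among them. The opposite direction was not counted for raw counts. The mean lincRNA total per library was 127784 in F1-γ and 111791 in F1-C, so raw counts are not on an equal footing. The paper reports the opposite direction for its own class-level comparison, with fewer lincRNA reads in F1-γ. The reason for this difference was not tested. In CPM the pair had 846, 810 and 712 in F1-γ and 1606, 2014 and 2218 in F1-C. The pair mean was 789 ± 69.4 CPM (SD, n = 3) in F1-γ and 1946 ± 312 CPM (SD, n = 3) in F1-C. The log2 FC was -1.29 (standard error 0.153) for si:dkey-163i6.7 and -1.30 (standard error 0.154) for si:ch73-112l6.6.

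**Figure D3:**
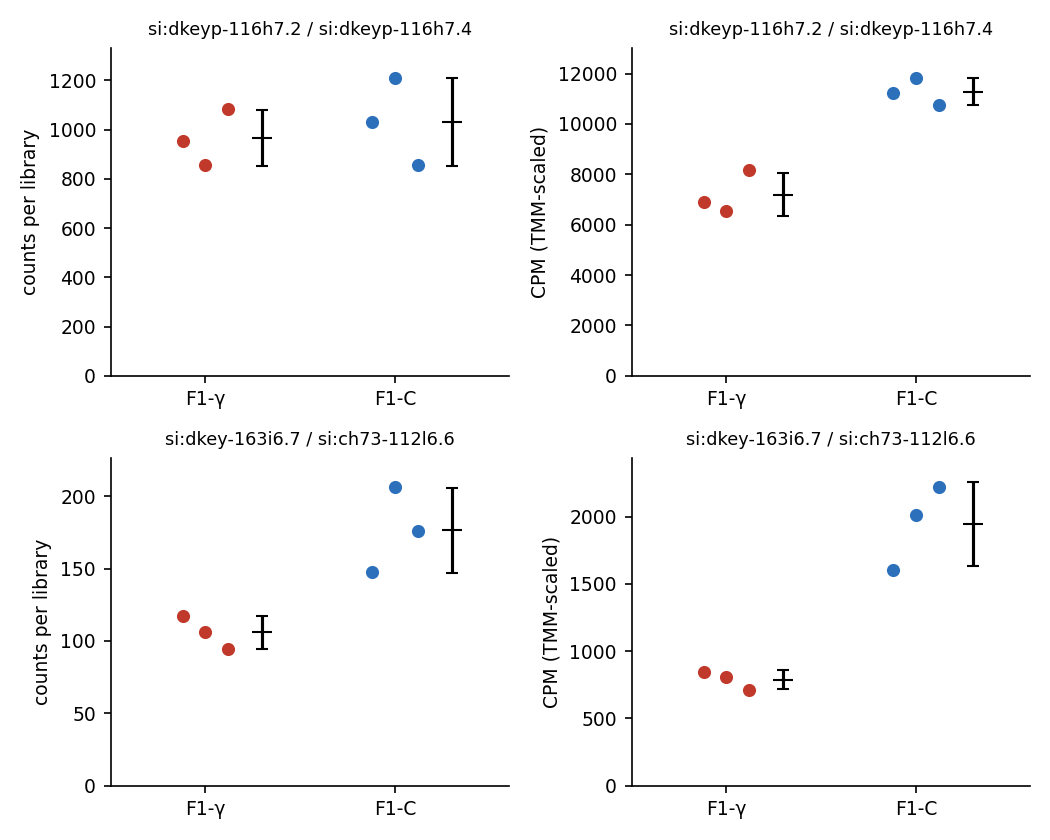
Mean of both partners in each library, as raw counts on the left and TMM-scaled CPM on the right, for si:dkeyp-116h7.2 / si:dkeyp-116h7.4 in the upper and si:dkey-163i6.7 / si:ch73-112l6.6 in the lower panels, with points for libraries and the mean ± SD in black. The groups overlapped only in the raw counts of the upper pair, 855.5 to 1082 in F1-γ and 854 to 1211 in F1-C.

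These differences are a description, since the members were chosen on this comparison. At an adjusted p below 0.05 with a log2 FC below -0.6, 11.2% of the 125 lincRNAs tested were called lower in F1-γ and 3.2% were called higher with a log2 FC above 0.6. All 4 members, and thus both pairs, were among those called lower. Alternatives to this fit used the same libraries on which the members were chosen, so a call kept in them is not independent support. How often other lincRNAs kept their calls was not counted. The si:dkey-163i6.7 / si:ch73-112l6.6 pair was called lower in each of the 18 alternatives to this fit in which it was tested. The si:dkeyp-116h7.2 / si:dkeyp-116h7.4 pair was called lower in 13 of 19 and lost the call in 6. Of these, 4 were other library sizes. They gave si:dkeyp-116h7.2 a log2 FC of -0.29 (standard error 0.119) with lincRNA totals, -0.62 (standard error 0.342) with the miRNA table, -0.56 (standard error 0.309) with the piRNA cluster table and -0.54 (standard error 0.262) with all 4 tables. The standard error was thus larger in the last 3 than the 0.114 under TMM. The other 2 were the fit without a count minimum (log2 FC -0.56) and the fit without F1-γ replicate 2 (log2 FC -0.58), in which the adjusted p stayed below 0.05. The split of calls also moved with the scaling, with 4 higher and 14 lower under TMM, 43 higher and 8 lower with lincRNA totals, and 4 higher and 8 lower with the totals of all 4 tables. All 4 had more than 100 counts in at least 3 libraries, as the test required, but si:dkey-163i6.7 and si:ch73-112l6.6 did not have that many in every library.

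The size of the difference depended on the scaling, by similar amounts on the log2 scale for both pairs. With the lincRNA total of each library in place of TMM, the log2 FC of si:dkeyp-116h7.2 was -0.29 and that of si:dkey-163i6.7 was -0.93 (standard error 0.153). This scaling placed the median of all 125 lincRNAs at 0.39, against 0.02 with TMM. The TMM factors were 1.13 to 1.15 in F1-γ and 0.845 to 0.904 in F1-C. Without si:dkey-153m14.1 in the table, the log2 FC was -0.67 for si:dkeyp-116h7.2 and -1.31 for si:dkey-163i6.7. A scaling shifts all lincRNAs by nearly the same amount, so the distance to the median lincRNA is fixed by construction and is only a description. Over 7 scalings the log2 FC minus that of the median lay between -0.70 and -0.67 for si:dkeyp-116h7.2 and between -1.32 and -1.29 for si:dkey-163i6.7.

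**Figure D4:**
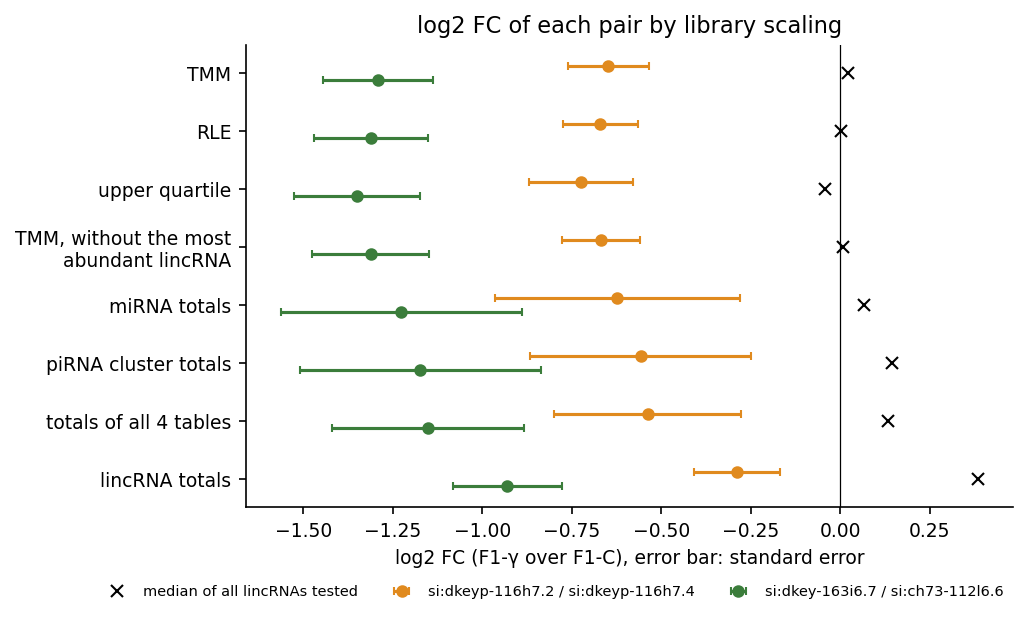
log2 FC (F1-γ over F1-C) of each pair, shown by its minus-strand transcript with the standard error, and the median log2 FC of all lincRNAs tested, under 8 ways of scaling the libraries. All values of both pairs lie below 0, from -0.72 to -0.29 for si:dkeyp-116h7.2 and from -1.35 to -0.93 for si:dkey-163i6.7, and the pairs and the median move together.

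A value free of any scaling is the number of si:dkey-163i6.7 counts per 100 counts of si:dkeyp-116h7.2 in the same library. It was 12.4, 12.4 and 8.78 in F1-γ and 14.4, 17.0 and 20.6 in F1-C, with a mean of 11.2 ± 2.08 (SD, n = 3) in F1-γ and 17.3 ± 3.14 (SD, n = 3) in F1-C. This ratio is a description, since both pairs were chosen on this comparison. How often ratios of other lincRNAs differ as much between the groups was not tested.

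The pairs were not equally abundant among lincRNAs. By counts summed over 6 libraries, si:dkeyp-116h7.2 ranked 27 and si:dkey-163i6.7 ranked 102 among 1315. Per kb of span, si:dkeyp-116h7.4 had 99.7 ± 11.8 counts (SD, n = 3) in F1-γ and 107 ± 18.5 (SD, n = 3) in F1-C and ranked 43 among the 125 lincRNAs tested. si:ch73-112l6.6 had 44.9 ± 4.70 counts per kb of span (SD, n = 3) in F1-γ and 75.2 ± 12.6 (SD, n = 3) in F1-C and ranked 58. These are the shorter transcripts. The longer ones hold nearly the same counts on longer spans and ranked lower per kb, si:dkeyp-116h7.2 at 73 and si:dkey-163i6.7 at 94. Within groups, the CPM of si:dkeyp-116h7.4 varied by 11.8% of its mean in F1-γ and 4.80% in F1-C, and that of si:ch73-112l6.6 by 8.74% in F1-γ and 16.2% in F1-C.

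The lincRNAs with the nearest profile to each pair were found by the Euclidean distance between log2 CPM values over the 6 libraries, each centred on its own mean. The libraries are those of the comparison, so the distance includes the difference between the groups. Nearest to si:dkeyp-116h7.2 / si:dkeyp-116h7.4 were si:zfos-754c12.1 (ENSDART00000164487.2, distance 0.247), ENSDART00000169082.2 (0.268) and ENSDART00000164527.2 (0.271), where the median of 123 lincRNAs was 1.01. ENSDART00000169082.2 and ENSDART00000164527.2 are themselves an overlapping pair on opposite strands, on chromosome 4. Nearest to si:dkey-163i6.7 / si:ch73-112l6.6 were si:ch211-202n12.4 (ENSDART00000152334.2, distance 0.517), ENSDART00000145442.3 (0.614) and si:dkeyp-9a1.3 (ENSDART00000157228.2, 0.712), where the median was 1.70. The pairs of chromosome 21 lay 0.937 from each other, further than from these neighbours, while the partners within a pair lay 0.0018 and 0.0224 apart.

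**Figure D5:**
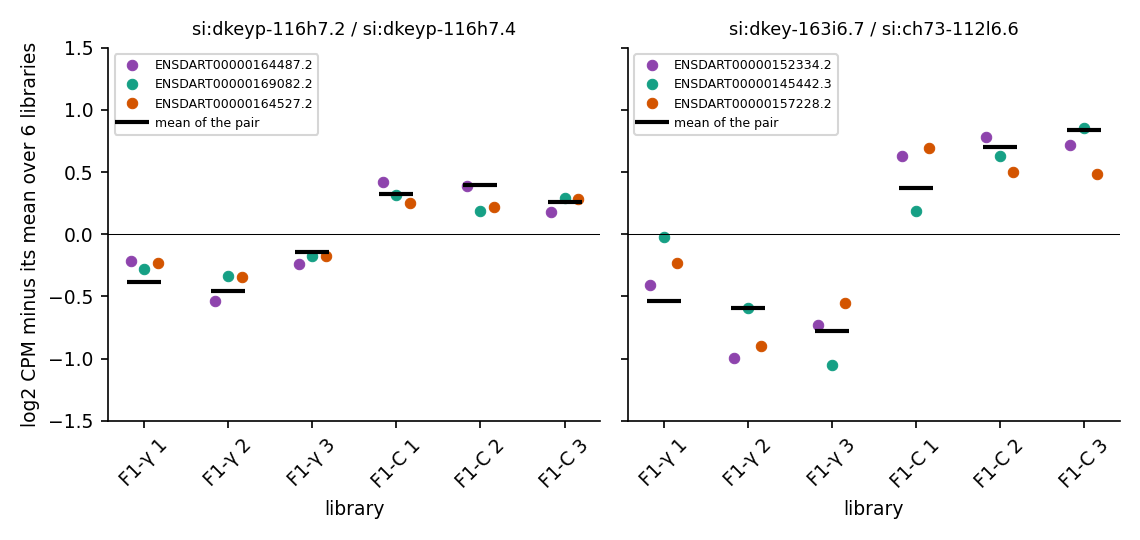
log2 CPM minus its mean over the 6 libraries, for the mean of each pair (black bars) and its 3 nearest lincRNAs (points), in F1-γ libraries on the left and F1-C libraries on the right of each panel. Every value shown for F1-γ lies below 0 and every value for F1-C above 0, with the highest F1-γ value that of ENSDART00000145442.3 in replicate 1 (-0.02).

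Other lincRNAs that overlap on opposite strands did not share one direction of log2 FC, though those with an adjusted p below 0.05 were all lower in F1-γ. Over all 125 lincRNAs tested, 26 lower and 20 higher ones passed that adjusted p alone. Of the 56 such transcripts outside the 2 pairs, 11 had enough counts to be tested. Their log2 FC ranged from -2.05 to 0.46 with a median of 0.34, beside a median of 0.02 over all 125 lincRNAs tested. Most of the 11 are partners of one another and share reads, so they stand for fewer separate loci. Over all 125 lincRNAs tested, 11.2% were called lower and 3.2% higher in F1-γ. The test called 1 of the 11, malat1 (ENSDART00000163316.2), which was lower in F1-γ. It is a nuclear lincRNA known in mammals for its place in splicing speckles. malat1 had 745, 933 and 580 CPM in F1-γ and 2809, 3353 and 3213 CPM in F1-C. The pair of ENSDART00000169082.2 and ENSDART00000164527.2 had log2 FC of -0.53 (standard error 0.120) and -0.50 (standard error 0.118), within the threshold of 0.6. Their adjusted p was 0.00754 and 0.00840 (edgeR quasi-likelihood, Benjamini-Hochberg), so only the size threshold was not passed. ENSDART00000153572.2 had a log2 FC of -0.45 (adjusted p 0.0359 in the same test). In contrast, ENSDART00000155086.2, ENSDART00000145561.3, ENSDART00000195002.1, ENSDART00000172746.2 and ENSDART00000155171.2 lay between 0.27 and 0.46, with adjusted p from 0.0619 to 0.287 in that test. The pair of chromosome 11 with the same span, ENSDART00000194925.1 and ENSDART00000194148.1, was on the other side of 0, with a log2 FC of 0.43 (standard error 0.159), and did not pass the test (edgeR quasi-likelihood, p adjusted by Benjamini-Hochberg 0.0542).

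On chromosome 21 the si:dkeyp-116h7.2 / si:dkeyp-116h7.4 pair had the most lincRNA counts. The table lists 32 lincRNAs there, and none of the other 28 had enough counts to be tested. The most counted of these, ENSDART00000194792.1, was named after its values were seen. It had 98, 104 and 109 counts in F1-γ and 64, 85 and 67 in F1-C. In F1-γ it was thus close to si:dkey-163i6.7, with 118, 106 and 95 counts, and above it in replicate 3. Counting each pair once, the members held 79.2% to 86.6% of the lincRNA counts of the chromosome in the 6 libraries, with 5988 counts from si:dkeyp-116h7.2 and 849 from si:dkey-163i6.7.

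The members do not lie in a piRNA cluster of the deposited table. Clusters are regions dense in reads of Piwi-interacting RNAs, which silence transposable elements in germ cells. The 171 clusters listed are those the paper matched between the groups, after it dropped clusters missing from any replicate. Clusters outside that list were not looked at. Of the 171 clusters, 2 are on chromosome 21, and none overlaps a member in the coordinates of either group. The nearest one, from 30145014 to 30153912 in F1-γ, lies 12.2 Mb from si:dkeyp-116h7.2 and 7.81 Mb from si:dkey-163i6.7.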

How the data were processed

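The authors trimmed adapters with Trim Galore 0.3.7 and removed poor reads and reads shorter or longer than a set range. They aligned the others to GRCz10 and deposited whole-number counts of reads on each lincRNA and snRNA, with no scaling. The paper names Unitas as the tool that sorted mapped reads into genomic features and counted them. The miRNA and piRNA cluster tables hold estimated counts that the authors deposited without scaling, here used for totals, stage markers and positions. The paper describes its cDNA libraries as non-directional. How reads on both strands, on introns or on several loci were counted on lincRNAs is not given in the sources used here. Transcript names were taken from the paper and gene identifiers from a table of names, which held 3 of the 4 members. Sequences came from the alignments given with the paper.

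Libraries were grouped by their titles. The third F1-γ title carries the numbers 2 and 3, and 3 was used. LincRNAs with more than 100 counts in at least 3 of the 6 libraries were fitted with edgeR 4.0.16 (R 4.3.3, TMM, quasi-likelihood test, no covariate), with Benjamini-Hochberg adjustment over 125 lincRNAs and calls where the adjusted p was under 0.05 and the absolute log2 FC over 0.6. The standard error of a log2 FC was its size divided by the square root of its F statistic. Profiles were log2 CPM values, with a prior count of 2, scaled to the library size, added to the counts before the log was taken. The procedure was tested on simulated counts, drawn separately for each lincRNA, with changes larger than those of the members and of random direction. Partners that share reads, or a drop as large as that of si:dkey-153m14.1, were not simulated. Replicate libraries differed beyond sampling noise, since chi-square divided by its degrees of freedom was 3.76 or more in each pair. The paper describes 3 replicate groups of parents in both the exposed and the control group, with embryo pools taken from each. The labels do not say which parental group or mating a library came from, so errors measure only the spread between these libraries.

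The named lincRNAs are the 4 members, the 3 nearest profiles of each pair, and the tested lincRNAs of chromosome 21 and of other opposite-strand pairs. Named outside this rule, with values known, were si:dkey-153m14.1, the most abundant lincRNA, and ENSDART00000194792.1, the most counted untested lincRNA of chromosome 21. The untested nested pair ENSDART00000194039.1 / ENSDART00000194022.1 was also named outside it with values known. Members and lists were chosen with earlier results of these data known. Alternatives covered count minimum, normalization, library size, test, replicate block, collapsed pairs, the most abundant lincRNA and each library left out. miRNA genes inside the spans were not looked for, because no annotation of GRCz10 was used here.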

Additional observations from a re-analysis of the deposited data

How the results depend on the processing

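The alternatives refit the libraries on which the members were chosen, so the values of the members below are a description only. The log2 FC of each member kept its sign in every alternative that gave a value. Over those alternatives it ran from -0.75 to -0.29 for si:dkeyp-116h7.2 and from -1.44 to -0.93 for si:dkey-163i6.7, with the value nearest to 0 from lincRNA totals without TMM factors. Under a minimum of more than 100 counts in all 6 libraries, si:dkey-163i6.7 and si:ch73-112l6.6 were not tested. Leaving out single libraries gave a log2 FC of -0.75 to -0.58 for si:dkeyp-116h7.2 and -1.44 to -1.20 for si:dkey-163i6.7.

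The number of lincRNAs called, 4 higher and 14 lower, moved to 60 without the filter (32 higher and 28 lower), 51 with lincRNA totals in place of TMM (43 higher and 8 lower), 10 with library sizes from the miRNA table, 9 with those from the piRNA cluster table and 46 with the adjusted p alone (20 higher and 26 lower). Without 1 library it ran from 14 to 29, with 29 called when F1-γ replicate 1 was left out. With the replicate block, 5 higher and 14 lower were called, a total of 19. The correlations of deviations of libraries with the same number were -0.20, -0.16 and -0.09, which gave no sign that the numbers pair the samples. Libraries with different numbers were not compared in this way, so pairing was not tested. In the block, the log2 FC of si:dkeyp-116h7.2 was -0.65 (standard error 0.122) and that of si:dkey-163i6.7 was -1.29 (standard error 0.175).

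For si:dkeyp-116h7.2, the difference in the share of counts outside the shared bases (0.00661 percentage points) was 0 when taken in counts, and ran from -0.0323 to 0.0389 with 1 library left out. It rests on 2 counts and has no stable direction. For si:dkey-163i6.7 it ran from 0.301 to 1.15 with 1 library left out.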
